A study of Mus musculus with 10 samples.

Results

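Complex I, the NADH:ubiquinone oxidoreductase of the inner mitochondrial membrane, was examined through 48 nuclear genes of 18493 in the deposited table. They were chosen by name alone: every gene symbol beginning with Ndufa, Ndufb, Ndufc, Ndufs, Ndufv or Ndufaf followed by a digit, plus Ndufab1, with pseudogenes left out. The 48 genes comprise 38 genes of structural subunits, 8 assembly factors, and Ndufa4 with its paralog Ndufa4l2, which carry the family name although Ndufa4 is a subunit of complex IV. Ndufb4 and its copies Ndufb4b and Ndufb4c are counted as separate subunits throughout. The Gene Ontology terms in the deposited table placed all 48 in the mitochondrion and 39 of them in respiratory chain complex I. These 39 include Ndufa4, so for that gene the terms differ from the class used here.

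The study sequenced mouse oocytes taken from the ovary to ask which transcripts change with age and with spermidine, a polyamine known to induce autophagy. The 10 libraries fall into 3 groups by their titles: 4 from the spermidine group, labelled as a rescue of aged oocytes, 3 from aged oocytes and 3 from young oocytes, labelled as controls. Age, mouse strain, oocyte stage, the number of oocytes in a library, and the dose and route of spermidine were not given in the sources used here. The labels do not say that libraries of a group came from separate animals, so the p-values measure the spread between libraries, which may be technical.

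Complex I takes electrons from NADH in its matrix arm, passes them through a flavin and a chain of iron-sulphur clusters to ubiquinone, and pumps protons through its membrane arm. The core subunits do the chemistry, the accessory subunits surround and stabilise them, and assembly factors build the complex and then leave it. Oocytes rely on mitochondrial respiration of pyruvate supplied by the surrounding cumulus cells.

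Each library held 24222185 to 28730790 counts over 15326 to 15711 detected genes. The oocyte markers Zp1, Zp2, Zp3, Gdf9, Bmp15, Ddx4, Figla and Nobox summed to between 14776 and 31770 CPM (counts scaled to a fixed library total) in the 10 libraries. The granulosa and cumulus marker list summed to 18.2 to 25.1 CPM and the theca list to 1.07 to 3.05 CPM, with Amh, Foxl2 and Has2 near 0. Of the 4 granulosa markers tested, 2 were higher in aged than in young oocytes by the edgeR test described below: Fshr averaged 1.68 CPM in aged and 0.473 CPM in young oocytes (adjusted p = 0.0125), and Nr5a2 6.77 CPM in aged and 4.44 CPM in young oocytes (adjusted p = 0.0481). Nr5a2 was also higher with spermidine than in young oocytes (7.61 CPM with spermidine, adjusted p = 0.0297). Of the 8 oocyte markers, Ddx4 was higher (log2 fold change 1.57, edgeR adjusted p = 0.00235) and Figla lower (-0.56, edgeR adjusted p = 0.0271) in aged than in young oocytes, and Ddx4 was lower with spermidine than in aged oocytes (-1.13, edgeR adjusted p = 0.0221). The part of these markers in the complex I results was not tested. Haemoglobin transcripts were an exception, at 9.64 CPM in aged library 1, 19.9 CPM in young library 1 and 13.6 CPM in young library 3, against at most 0.145 CPM in the other 7 libraries.

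All 48 genes were expressed above the filter on low counts and entered the fit of 12315 genes, and 45 of them averaged over 10 CPM. The median complex I gene averaged 42.9 CPM over the 10 libraries, against 7.34 CPM for the median tested gene. Per kilobase of transcript, which allows genes to be compared with each other, Ndufa2 was highest at 369 CPM per kb, followed by Ndufa11 at 298 and Ndufb11 at 266 CPM per kb. The lowest were Ndufaf1, an early assembly factor, at 0.541 CPM per kb, and Ndufa4l2 at 0.417 CPM per kb. The measure depends on the transcript annotated as principal, and for Ndufb2 that transcript was 4371 bases long, so its length-scaled level of 5.32 CPM per kb may be read too low.

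**Figure D1:**
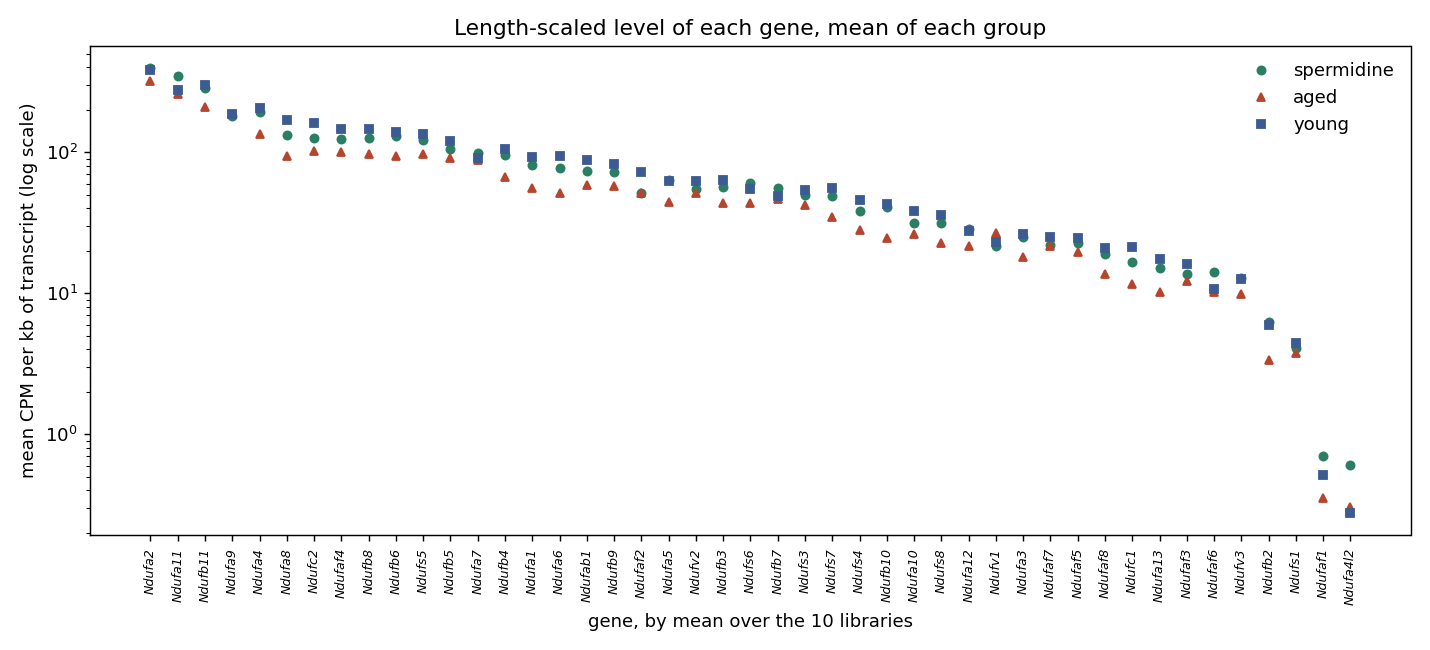
Mean level of each gene in CPM per kilobase of its principal transcript (vertical axis, log scale) in spermidine, aged and young oocytes, for genes with an annotated length, in order of the mean over the 10 libraries. The aged mean lies below the young mean for every gene plotted except Ndufv1 and Ndufa4l2. The means over the 10 libraries, which set the order and are not drawn, run from 369 CPM per kb for Ndufa2 to 0.417 CPM per kb for Ndufa4l2.

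The promoters of these genes differ in the motifs they hold. Those of 5 genes are shown because they span the results that follow: Ndufa6, Ndufa8 and Ndufaf4 were lower in aged oocytes and hold the core of the NRF1 motif, Ndufa11 holds it and was not called, and Ndufb10 was lower and holds no match. NRF1 is a transcription factor known to act on many nuclear genes of the respiratory chain. Each line gives the 250 bases before the RefSeq start of the gene, on the gene's strand in GRCm38.p6, with the motif CATGCGC or its reverse complement GCGCATG in capitals.

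Ndufa6 (chr15:82354292-82354541, minus strand): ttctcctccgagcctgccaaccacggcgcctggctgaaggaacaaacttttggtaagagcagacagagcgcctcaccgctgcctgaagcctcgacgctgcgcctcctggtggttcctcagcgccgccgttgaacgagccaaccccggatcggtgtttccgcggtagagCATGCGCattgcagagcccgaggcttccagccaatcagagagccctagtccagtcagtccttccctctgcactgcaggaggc
Ndufa8 (chr2:36049339-36049588, minus strand): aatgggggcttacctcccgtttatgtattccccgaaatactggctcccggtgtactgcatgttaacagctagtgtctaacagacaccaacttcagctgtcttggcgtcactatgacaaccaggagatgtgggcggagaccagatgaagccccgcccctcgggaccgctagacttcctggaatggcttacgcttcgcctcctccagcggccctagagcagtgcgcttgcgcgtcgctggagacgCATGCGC
Ndufaf4 (chr4:24897833-24898082, plus strand): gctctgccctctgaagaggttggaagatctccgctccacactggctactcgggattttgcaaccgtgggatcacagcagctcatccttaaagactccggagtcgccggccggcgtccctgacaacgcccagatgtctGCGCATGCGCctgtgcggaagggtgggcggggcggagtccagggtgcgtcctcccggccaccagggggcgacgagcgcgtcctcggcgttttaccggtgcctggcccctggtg
Ndufa11 (chr17:56717512-56717761, plus strand): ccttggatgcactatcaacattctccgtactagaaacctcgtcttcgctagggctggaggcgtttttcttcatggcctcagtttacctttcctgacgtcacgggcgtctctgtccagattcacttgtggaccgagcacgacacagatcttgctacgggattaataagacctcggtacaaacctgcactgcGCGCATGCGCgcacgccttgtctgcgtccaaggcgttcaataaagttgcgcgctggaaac
Ndufb10 (chr17:24724424-24724673, minus strand): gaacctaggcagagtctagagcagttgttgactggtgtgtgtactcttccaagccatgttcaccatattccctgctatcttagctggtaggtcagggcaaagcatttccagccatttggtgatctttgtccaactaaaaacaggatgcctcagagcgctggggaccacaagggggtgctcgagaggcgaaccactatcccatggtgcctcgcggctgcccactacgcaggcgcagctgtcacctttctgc

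In Ndufaf4 and Ndufa11 the motif and its reverse complement overlap as a palindrome. A search of both strands from 250 bases before to 50 bases after the start found CATGCGC in 7 of the 41 complex I genes with a promoter in the RefSeq table, 17.1%, against 7.87% of the promoters of tested genes and 4.41% of all 27025 promoters. The 7 genes are Ndufa6, Ndufa8, Ndufa11, Ndufb6, Ndufb8, Ndufaf4 and Ndufaf5. The YY1 motif AAGATGG was found in 19.5% of the complex I promoters against 8.45% of tested promoters, the ETS motif CCGGAAG in 14.6% against 19.7%, and the ERR motif AAGGTCA in 7.32% against 4.06%. These matches describe the letters in the window and were not tested against binding.

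In aged oocytes, transcripts of most complex I subunits had lower estimates than in young oocytes, and no gene was called higher. In the membrane arm, 15 of 21 accessory subunits fell, including Ndufa8, Ndufc1, Ndufb10 and Ndufb2, whose levels in aged oocytes were 0.552 to 0.569 of the young level. Of the core subunits, which carry the redox centres, Ndufs7 and Ndufs8 passed the test, and Ndufv1, the flavin-bearing subunit, did not. In the edgeR quasi-likelihood test, with Benjamini-Hochberg adjustment over 12315 genes and a threshold of 0.05, 23 of 48 genes were lower and 0 higher, where 8.06% of all tested genes were lower and 9.71% higher. The median log2 fold change of the 48 was -0.51, against 0.10 for all tested genes, and 46 of the 48 were below 0, as were 44% of all tested genes. In 35 genes the aged libraries all lay below the young ones, which 18.8% of tested genes did, and in 0 they all lay above, which 21.1% did. Since these are bulk libraries, fewer contributing cells and less RNA per cell cannot be told apart. CPM values are shares of a library and do not measure the amount of RNA in a cell. The cDNA was primed with oligo dT, and the part of poly(A) tail length in these counts was not tested.

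**Figure D2:**
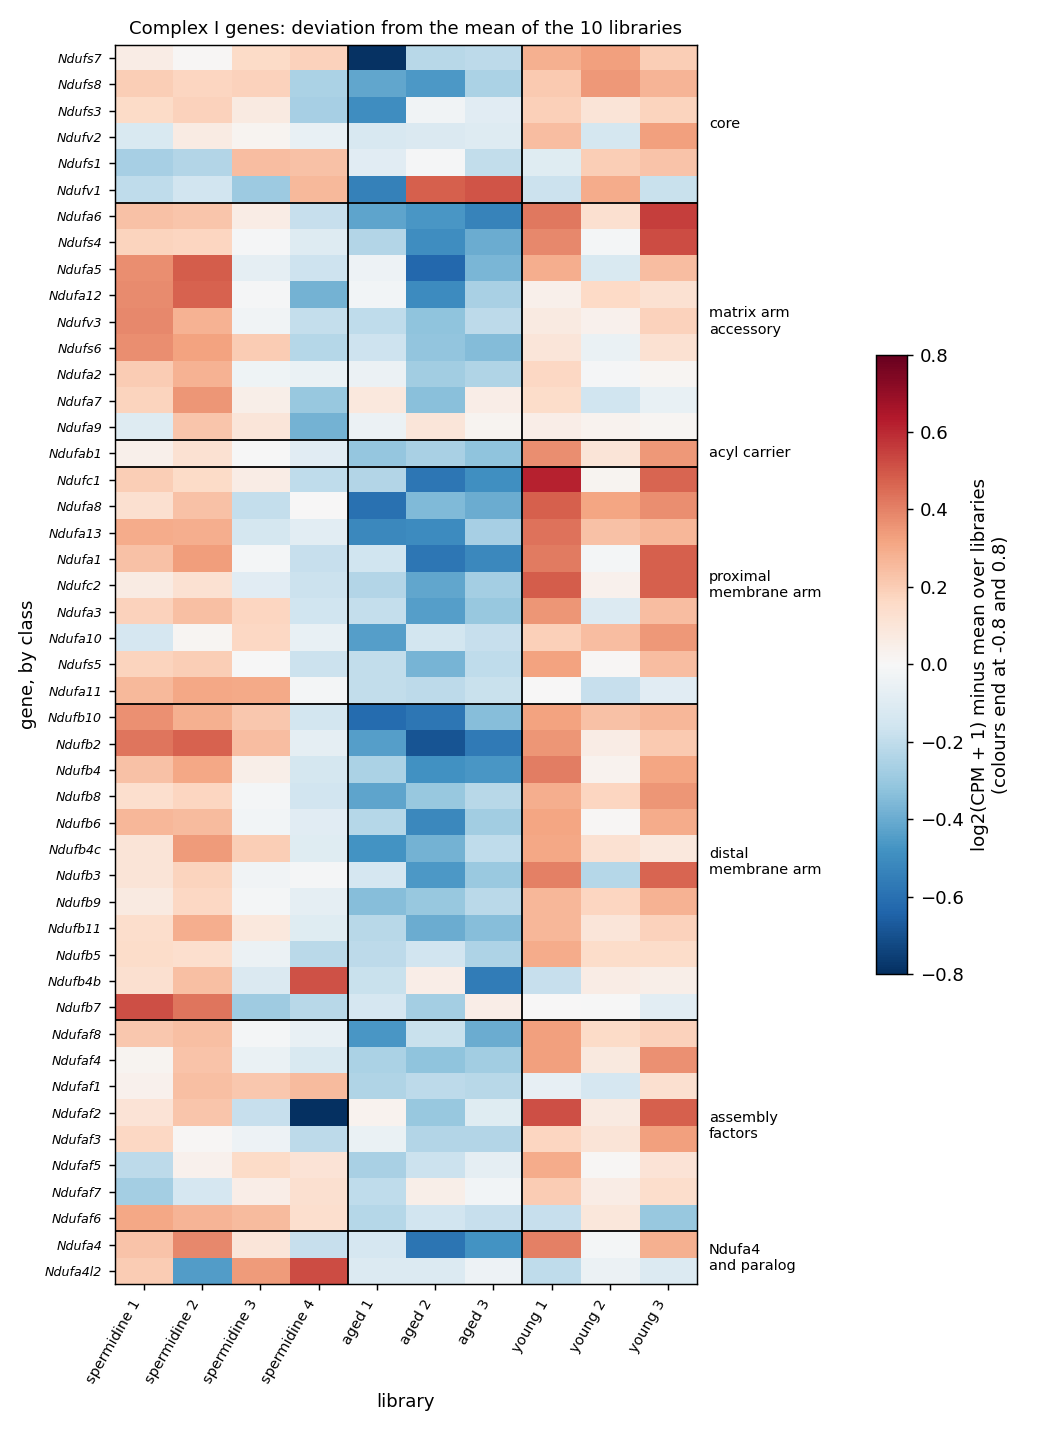
Deviation of each complex I gene shown, in log2(CPM + 1), from its mean over the 10 libraries (colour), with genes in rows by class and libraries in columns, spermidine, then aged, then young. The aged columns are blue for most subunits of the membrane arm, and each young column holds mostly red cells.

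Among the 7 core subunits, Ndufs8 and Ndufs7, which carry the iron-sulphur clusters nearest ubiquinone, fell in aged oocytes. Ndufs8 had 34.3, 33.8, 34.0 and 24.8 CPM in the spermidine libraries, 22.1, 21.5 and 24.9 CPM in the aged libraries, and 34.6, 38.2 and 36.2 CPM in the young libraries. All aged libraries lay below all young ones, and spermidine library 4 lay at the aged level. Its log2 fold change, aged minus young, was -0.67 (SE 0.16, edgeR adjusted p = 0.0144). Ndufs7 had 46.8, 45.2, 50.02 and 51.0 CPM with spermidine, 25.5, 38.3 and 38.6 CPM in aged oocytes, and 55.0, 56.7 and 51.7 CPM in young oocytes. Aged library 1 was the lowest of all, and the groups did not overlap (log2 fold change -0.67, SE 0.17, edgeR adjusted p = 0.0175). Ndufs3, Ndufv2 and Ndufs1 had log2 fold changes of -0.36, -0.28 and -0.24 and did not pass. Ndufv1, with a log2 fold change of 0.23, had an estimate above 0 that did not pass (edgeR adjusted p = 0.562), and its aged libraries ranged from 26.0 to 54.6 CPM.

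The 9 accessory subunits of the matrix arm gave 2 calls, both lower in aged oocytes. Ndufa6 belongs to the LYR-motif family and anchors the acyl carrier protein on the matrix arm. Its levels were 50.4, 49.998, 44.4 and 37.4 CPM with spermidine, 31.6, 30.6 and 29.1 CPM in aged oocytes, and 57.5, 46.7 and 63.0 CPM in young oocytes. The 3 aged libraries sat close together and below every other library (aged minus young, log2 fold change -0.87, SE 0.16, edgeR adjusted p = 0.0049). Ndufs4, whose loss in mice models Leigh syndrome, had 70.6, 70.2, 62.005 and 58.0 CPM with spermidine, 52.9, 43.9 and 47.0 CPM in aged, and 81.6, 61.7 and 89.8 CPM in young oocytes. Its aged libraries were again the lowest, while the young libraries spread widely (log2 fold change -0.70, SE 0.16, edgeR adjusted p = 0.0144). The other 7, Ndufa5, Ndufa12, Ndufv3, Ndufs6, Ndufa2, Ndufa7 and Ndufa9, had log2 fold changes between -0.48 and -0.01 and did not pass. Ndufa9, a member of the short-chain dehydrogenase family, averaged 261 ± 46.2, 269.8 ± 13.6 and 271 ± 3.79 CPM in spermidine, aged and young oocytes (SD, n = 4, 3 and 3).

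Ndufab1, the mitochondrial acyl carrier protein, which also serves fatty acid and iron-sulphur cluster synthesis, was lower in aged oocytes. It had 259, 274, 251 and 237 CPM with spermidine, 203, 210.5 and 201 CPM in aged, and 327, 270.2 and 321 CPM in young oocytes. The 3 aged libraries were nearly equal and lay below all others (log2 fold change -0.58, SE 0.13, edgeR adjusted p = 0.00994).

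In the proximal membrane arm, 7 of 9 accessory subunits fell in aged oocytes: Ndufa8, Ndufc1, Ndufa13, Ndufc2, Ndufa1, Ndufa10 and Ndufs5. Ndufa8, a cysteine-rich subunit on the intermembrane-space side, had the smallest p of all 48 genes. Its levels were 121, 130.5, 96.6 and 111 CPM with spermidine, 72.8, 86.4 and 83.6 CPM in aged, and 155, 138 and 143 CPM in young oocytes. The 3 groups did not overlap, with spermidine between the others (aged minus young, log2 fold change -0.84, SE 0.14, edgeR adjusted p = 0.00315). Ndufc1, a small single-pass subunit, had 23.1, 22.4, 20.9 and 17.3 CPM with spermidine, 16.9, 13.1 and 13.9 CPM in aged, and 31.2, 20.4 and 28.0 CPM in young oocytes. The aged libraries lay lowest, although young library 2 was closer to the spermidine libraries than to the other young ones (log2 fold change -0.86, SE 0.19, edgeR adjusted p = 0.0116). The other 5 that passed had log2 fold changes from -0.78 for Ndufa13, also known as GRIM-19, to -0.46 for Ndufs5. Ndufa3 and Ndufa11 did not pass, with log2 fold changes of -0.52 and -0.11.

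In the distal membrane arm, 8 of 12 Ndufb genes fell in aged oocytes: Ndufb10, Ndufb2, Ndufb8, Ndufb9, Ndufb4, Ndufb11, Ndufb6 and Ndufb4c. Ndufb10, a cysteine-rich subunit at the intermembrane-space face, had 33.6, 31.7, 30.3 and 23.2 CPM with spermidine, 16.6, 17.0 and 20.2 CPM in aged, and 32.6, 30.7 and 31.3 CPM in young oocytes. The aged libraries were well below the tight young group (aged minus young, log2 fold change -0.81, SE 0.16, edgeR adjusted p = 0.00741). Ndufb2, a small single-pass subunit, had 30.5, 31.4, 26.7 and 21.2 CPM with spermidine, 16.2, 13.5 and 14.8 CPM in aged, and 28.8, 23.4 and 26.1 CPM in young oocytes. Here the spermidine and young libraries overlapped and both lay above every aged library (log2 fold change -0.81, SE 0.18, edgeR adjusted p = 0.00994). Ndufb5, Ndufb3, Ndufb4b and Ndufb7 did not pass, with log2 fold changes of -0.40, -0.55, -0.26 and -0.09. Counts of Ndufb4, its copies Ndufb4b and Ndufb4c, and Ndufb11 were not whole in all 10 libraries, so part of their reads was shared with other genes and their separate values are uncertain. Summed, Ndufb4 and its copies averaged 122 ± 15.2 CPM with spermidine, 84.8 ± 4.74 CPM in aged and 131 ± 15.1 CPM in young oocytes (SD, n = 4, 3 and 3).

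**Figure D3:**
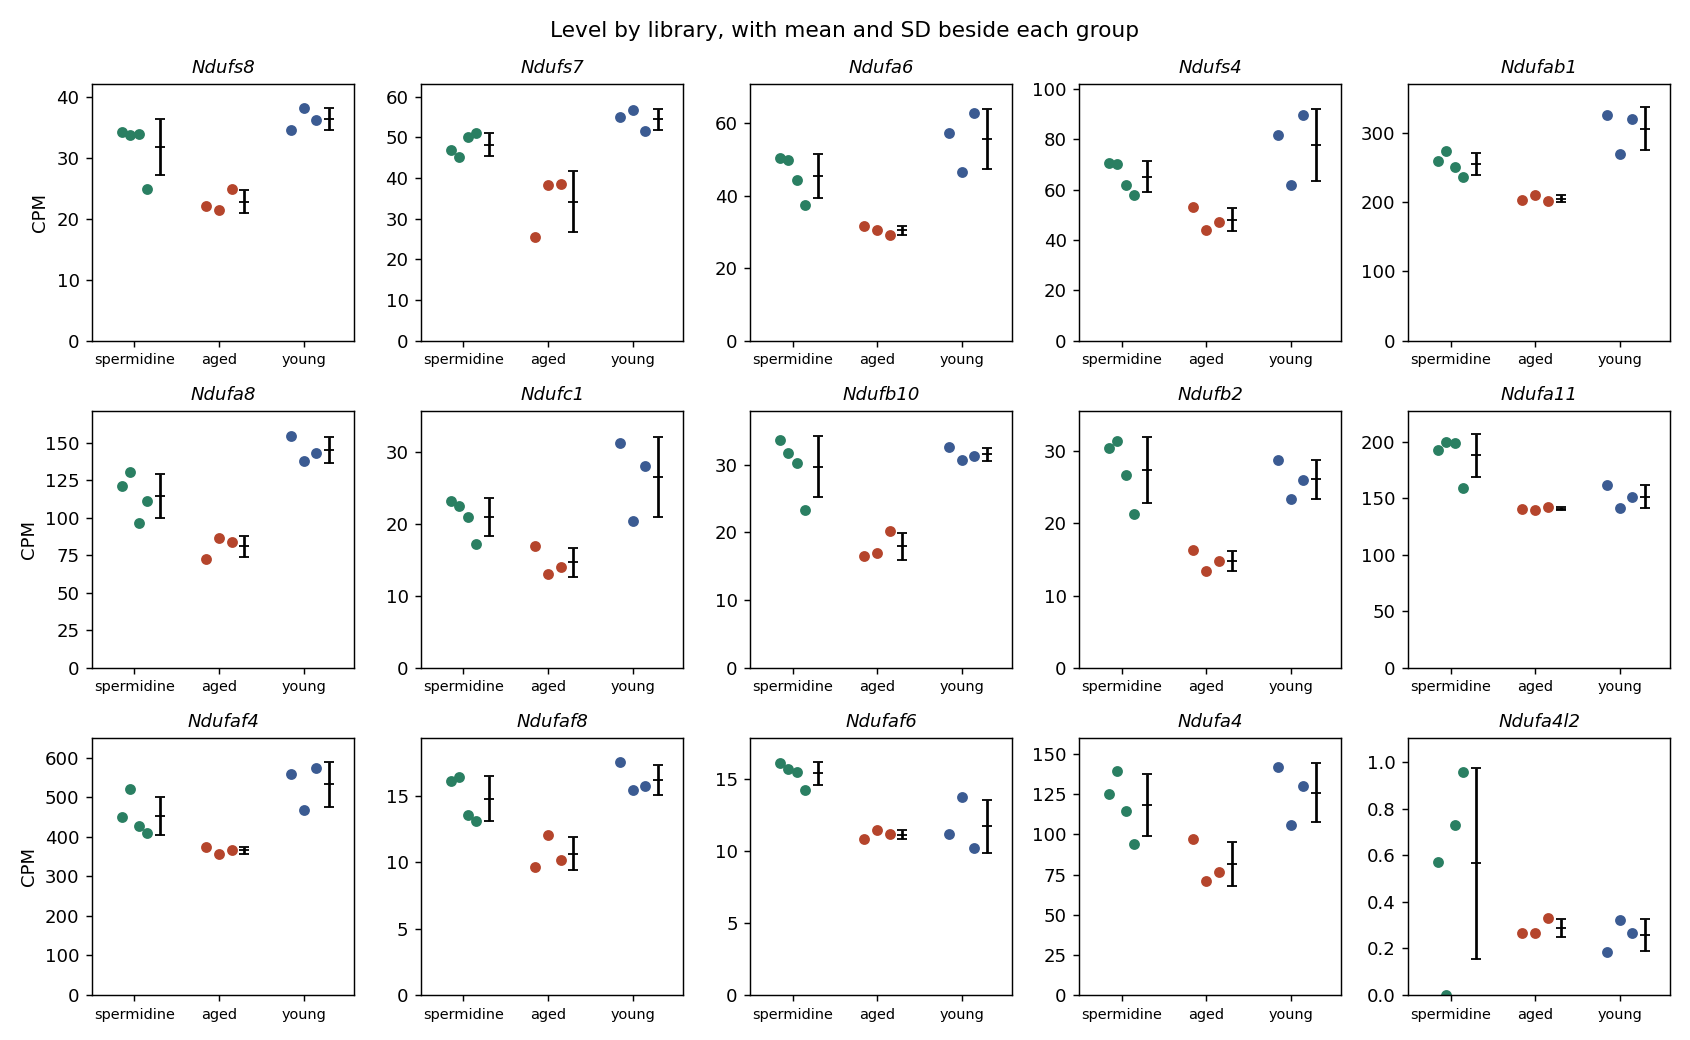
Level in CPM (vertical axis, from 0) of the genes given library by library, with 1 point per library and the mean and SD beside each group, spermidine, aged and young from left to right. In the panels of Ndufa6, Ndufab1, Ndufb10 and Ndufb2 all 3 aged points lie below every other point.

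By arm, 15 of 21 membrane arm subunits and 4 of 16 matrix arm subunits, core included, were lower in aged oocytes. Their median log2 fold changes were -0.55 and -0.35, and the difference between the arms was not tested. These values come from counts not corrected for transcript length, and the arms were not compared after the correction given below. Summed over the 38 structural subunits, transcripts came to 2949, 3150, 2788 and 2504 CPM with spermidine, 2278, 2268 and 2327 CPM in aged, and 3231, 2844 and 3153 CPM in young oocytes. The 3 aged sums varied little and were the lowest of the 10, and the young and spermidine sums overlapped.

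Of the 8 assembly factors named Ndufaf, Ndufaf4 and Ndufaf8 fell in aged oocytes. Ndufaf4, which acts with Ndufaf3 early in assembly, had 451, 521, 428 and 409 CPM with spermidine, 373, 356 and 367 CPM in aged, and 558, 468 and 574 CPM in young oocytes. The aged libraries lay below all others (log2 fold change -0.55, SE 0.14, edgeR adjusted p = 0.0183). Ndufaf8, a partner of Ndufaf5, which hydroxylates an arginine of Ndufs7, had 16.1, 16.4, 13.6 and 13.2 CPM with spermidine, 9.68, 12.1 and 10.2 CPM in aged, and 17.6, 15.4 and 15.8 CPM in young oocytes. Again no aged library reached another group (log2 fold change -0.61, SE 0.16, edgeR adjusted p = 0.0238). Ndufaf3, Ndufaf5, Ndufaf2, Ndufaf1 and Ndufaf7 did not pass, with log2 fold changes between -0.52 and -0.19. Their aged libraries lay wholly below the young ones in CPM, as in 18.8% of all tested genes. Counts of Ndufaf1 were low, at 15, 14 and 14 in the aged and 15, 17 and 21 in the young libraries. Ndufaf6 and Ndufaf7 also had counts that were not whole in all 10 libraries, so part of their reads was shared with other genes.

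Of 10 further assembly genes tested, 3 fell in aged oocytes and 0 rose, where 8.06% of all tested genes were lower and 9.71% higher. The 3 that fell were Tmem126b and Acad9, both of the mitochondrial complex I intermediate assembly complex, and Dmac1, a distal membrane arm assembly component. Tmem126b averaged 6.60 ± 1.27 CPM with spermidine, 4.998 ± 0.580 CPM in aged and 10.3 ± 1.303 CPM in young oocytes (SD, n = 4, 3 and 3; aged minus young, log2 fold change -1.05, edgeR adjusted p = 0.00646). Dmac1 and Acad9 had log2 fold changes of -0.80 and -0.63. The other way, 2 of the 10 had estimates above 0 without passing, Tmem186 at 0.56 and Dmac2 at 0.54. None of the 10 passed in either comparison of the spermidine group. Of 9 transcriptional regulators of nuclear respiratory genes, 7 were tested, and Yy1 alone passed. It averaged 2.82 ± 0.868 CPM with spermidine, 2.28 ± 0.979 CPM in aged and 0.918 ± 0.143 CPM in young oocytes (SD, n = 4, 3 and 3). It was higher in aged than in young oocytes (log2 fold change 1.3, edgeR adjusted p = 0.0249) and with spermidine than in young oocytes (log2 fold change 1.61, edgeR adjusted p = 0.0143). Nrf1 had a log2 fold change of -0.14 (edgeR adjusted p = 0.689), and Esrra and Ppargc1a were near 0 and were not tested. The mitochondrially encoded subunits were not analysed here.

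Ndufa4 and its paralog Ndufa4l2 were unlike each other. Ndufa4 had 125, 139.8, 114 and 93.8 CPM with spermidine, 97.3, 70.9 and 76.5 CPM in aged, and 142, 106 and 130.4 CPM in young oocytes, and it fell in aged oocytes (log2 fold change -0.63, SE 0.18, edgeR adjusted p = 0.034). Ndufa4l2, known as a gene induced by low oxygen, had 19, 0, 18 and 25 counts with spermidine, 8, 7 and 9 in aged and 4, 9 and 6 in young oocytes. Its counts were low throughout and the groups overlapped, with no call in any comparison.

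The authors' deposited table gave 24 of the 48 genes lower and 0 higher in aged oocytes at a q-value under 0.05, where 5.94% of its genes were lower and 5.91% higher. The count of 23 moved with the libraries used: it was 8 without young library 1, 12 without aged library 2, 14 without aged library 3 and 14 without young library 3. Calls over all tested genes moved too, with 3.48%, 4.31%, 4.46% and 4.53% lower in these fits against 8.06% with all libraries, while the median log2 fold change stayed between -0.57 and -0.47. Of the 23, 7 passed whichever single library was left out, Ndufa8, Ndufa6, Ndufb10, Ndufb2, Ndufab1, Ndufa13 and Ndufb8.

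The relation of the counts to transcript length differed between libraries. Complex I transcripts are short, with a median length of 977 bases against 2931 bases for tested genes. Across genes, the rank correlation between length and a gene's deviation from its mean over libraries was 0.19, -0.10, -0.21 and -0.13 in the spermidine libraries, 0.47, 0.04 and 0.03 in the aged libraries, and -0.27, -0.21 and -0.13 in the young libraries. The young values were all below the aged ones, aged library 1 stood highest, and spermidine library 1 lay above the other 2 aged libraries. With counts corrected for length and GC content, 11 of the 48 genes were lower in aged oocytes and the median log2 fold change was -0.20, while 7.82% of all tested genes were lower. Ndufb4b and Ndufb4c have no annotated length, so their counts stayed uncorrected. The 11 genes, all among the 23, were Ndufa6, Ndufa8, Ndufa10, Ndufa13, Ndufab1, Ndufb2, Ndufb10, Ndufs7, Ndufs8, Ndufaf4 and the uncorrected Ndufb4c. Ndufb2, Ndufaf4 and Ndufab1 have principal transcripts of 4371, 3632 and 3479 bases. These exceed the median of tested genes, so the correction treated them as long genes. With the median coding transcript as the length of a gene, the count was 18 and the median -0.34, while 8.96% of all tested genes were lower. Ndufab1 did not pass in that version. Scaling by the total count instead of TMM left Ndufa6, Ndufa8, Ndufb10 and Ndufs7, 4 genes, lower, where 3.29% of all tested genes were lower. It also moved the median of all genes to 0.24. The complex I median relative to that of all genes was -0.60 under that scaling and -0.61 under TMM.

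Haemoglobin transcripts were present in aged library 1 and in young libraries 1 and 3, and without these 3 libraries 0 of the 48 genes passed, with 0.45% of all tested genes lower and 1 young library left, which is assumed to vary like the other groups. The median log2 fold change was then -0.42. The subunit sum of aged library 1, which holds haemoglobin, was 2278 CPM, near those of the other 2 aged libraries, and that of young library 2, which holds almost none, was 2844 CPM, the lowest of the young group.

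**Figure D4:**
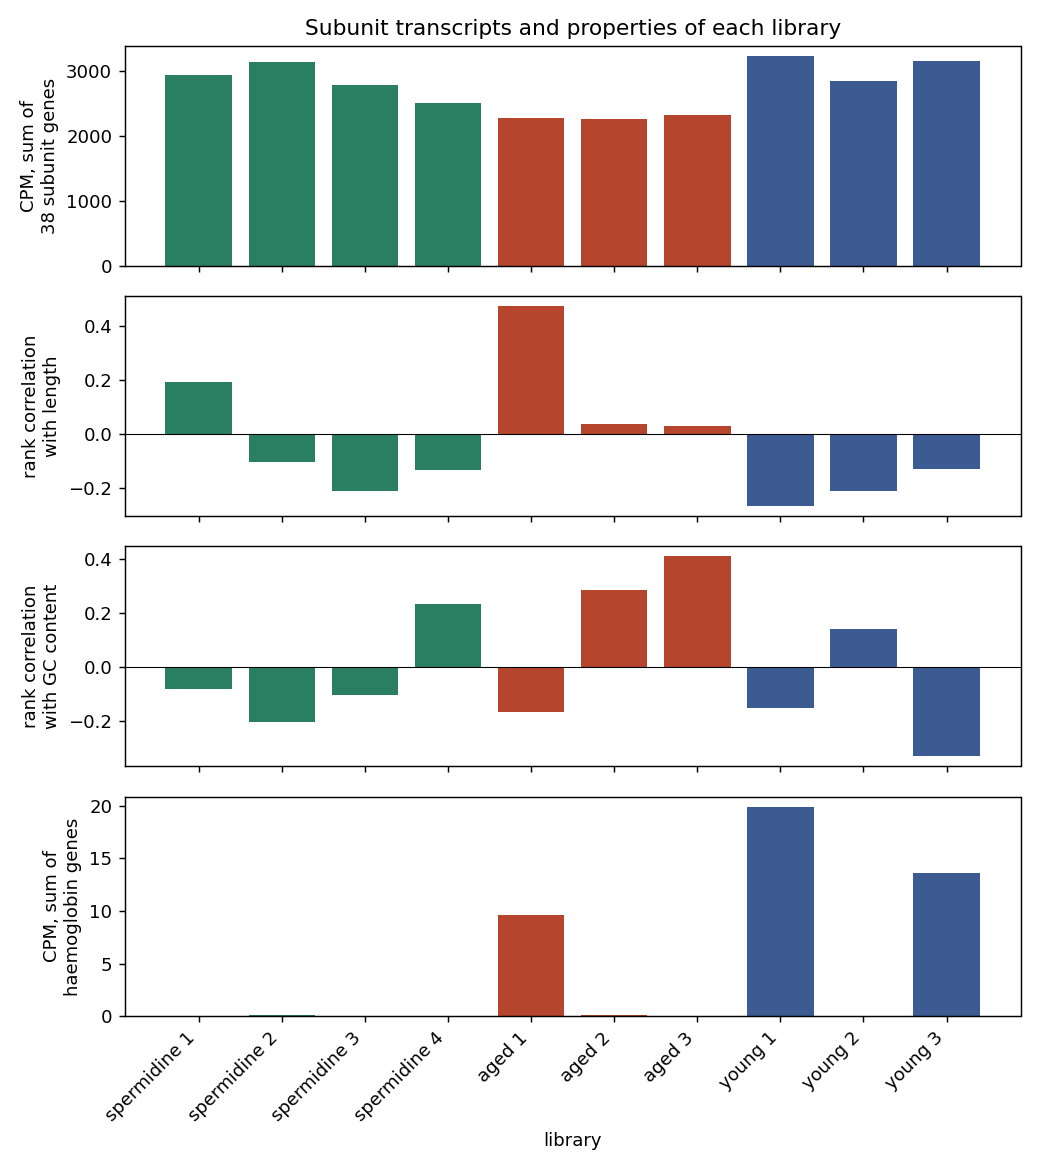
For each library, from top to bottom, the summed CPM of the 38 structural subunits, the rank correlation across genes of a gene's deviation with transcript length and with GC content, and the summed CPM of haemoglobin genes. Bars run spermidine, aged, young; the aged bars are the lowest in the top panel, and aged library 1 has the highest correlation with length, 0.47.

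With spermidine, 3 subunits were higher than in untreated aged oocytes: Ndufb2, Ndufb10 and Ndufa6, by 1.85, 1.66 and 1.497 times. Most other complex I genes had estimates in the same direction without passing. The edgeR test called 3 of 48 genes higher and 0 lower, where 2.42% of all tested genes were higher and 2.44% lower. The median log2 fold change was 0.42, against -0.03 for all tested genes, and 3 of the 48 were below 0, against 52.5% of all tested genes. An unadjusted p under 0.05 was reached by 30 of the 48, against 24.2% of tested genes, and in 26 the spermidine libraries all lay above the aged ones, against 11.4%. In 0 they all lay below, against 8.49%. This comparison uses the same aged libraries as the comparison with young oocytes, so the estimates of both are not independent.

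From the values above, Ndufb2 had 21.2 to 31.4 CPM in the spermidine libraries and 13.5 to 16.2 CPM in the aged libraries, a log2 fold change of 0.89 (SE 0.17, edgeR adjusted p = 0.0167). Ndufb10 had 23.2 to 33.6 CPM with spermidine and 16.6 to 20.2 CPM in aged oocytes, a log2 fold change of 0.73 (SE 0.16, edgeR adjusted p = 0.0257). Ndufa6 had 37.4 to 50.4 CPM with spermidine and 29.1 to 31.6 CPM in aged oocytes, a log2 fold change of 0.58 (SE 0.15, edgeR adjusted p = 0.0491). In all 3 genes the groups did not overlap, and spermidine library 4 was the lowest of its group. Ndufa8 came next and missed the threshold (log2 fold change 0.50, SE 0.14, edgeR adjusted p = 0.0526).

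By class, the calls were 0 of 7 core subunits, 1 of 9 matrix arm accessory subunits, 0 of 9 in the proximal and 2 of 12 in the distal membrane arm, and 0 of 8 assembly factors. Median log2 fold changes were 0.42 for the matrix arm accessory subunits, 0.46 and 0.44 for the proximal and distal membrane arm, and 0.25 for the assembly factors. Of the assembly factors, Ndufaf1 had the largest estimate, 0.97, at a mean of 1.02 CPM with spermidine and 0.515 CPM in aged oocytes (edgeR adjusted p = 0.0602). Ndufaf2, a paralog of Ndufa12 that assists late assembly, averaged 34.8 CPM with spermidine and 34.9 CPM in aged oocytes. Ndufv1 had the lowest estimate, -0.31 (edgeR adjusted p = 0.468).

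**Figure D5:**
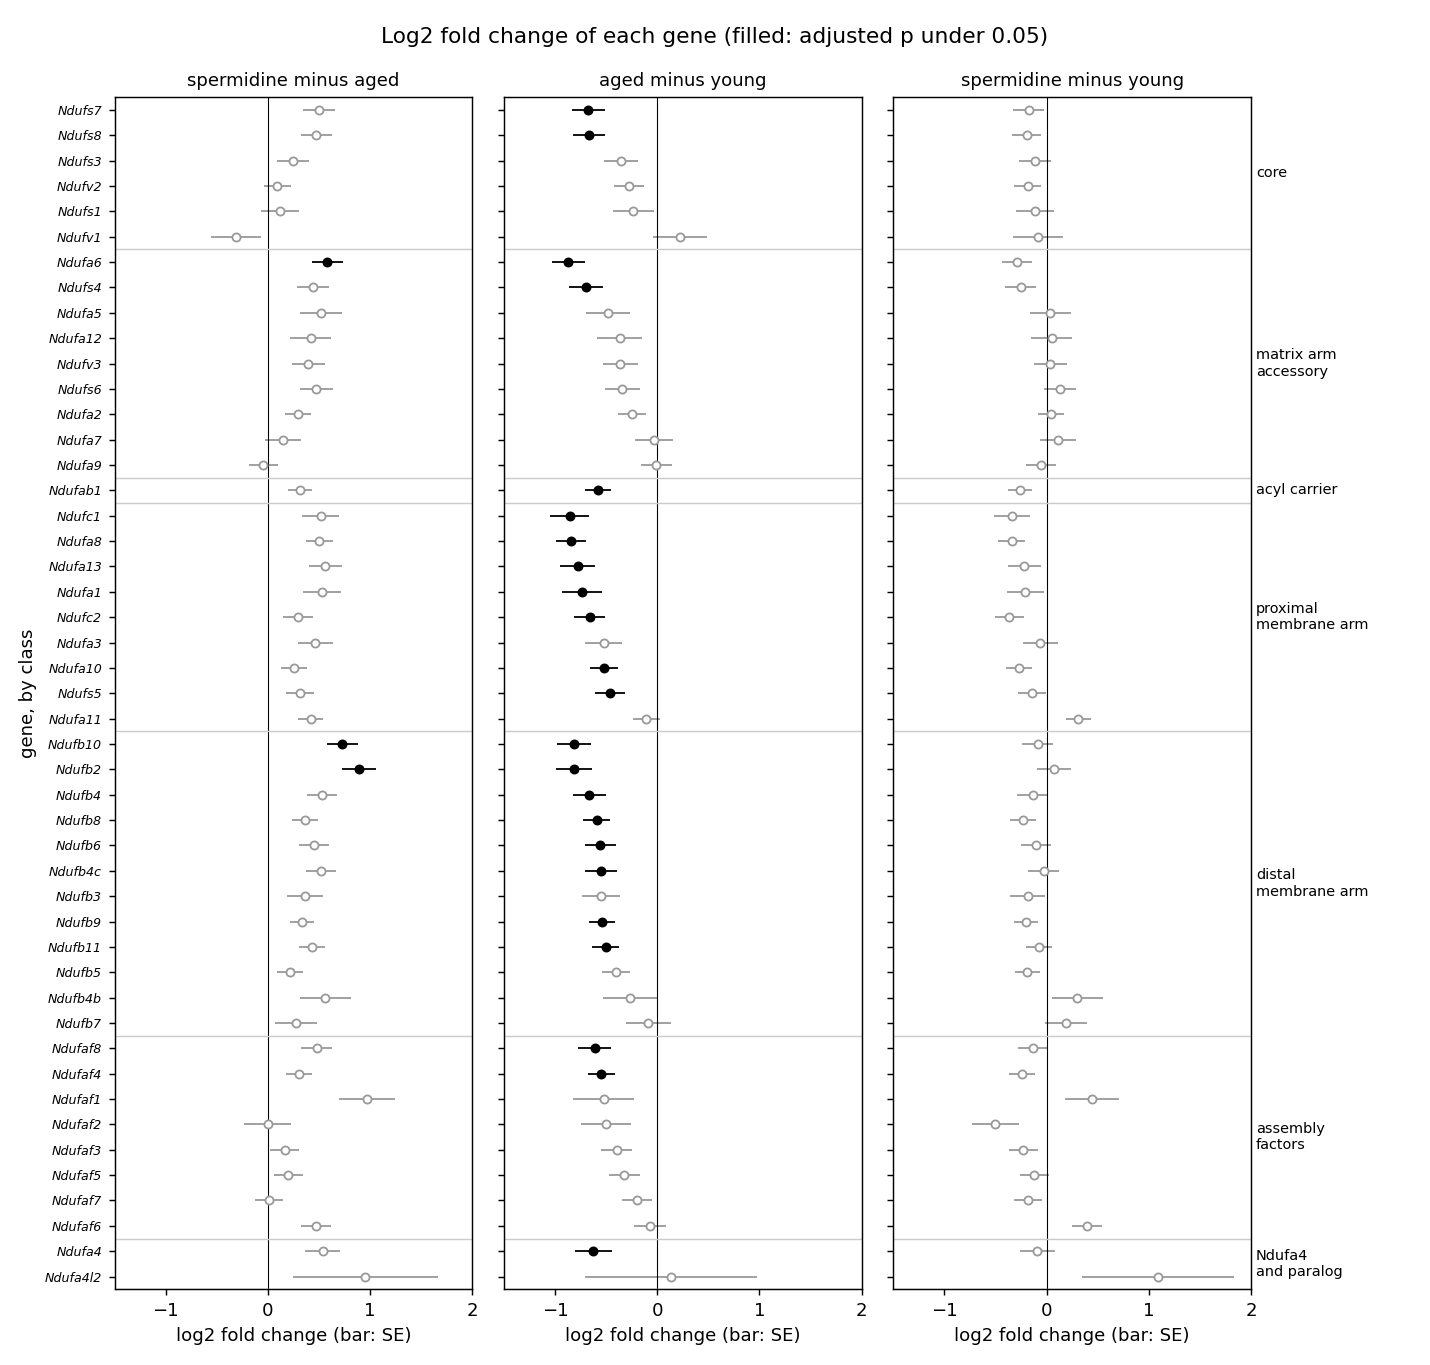
Log2 fold change of each complex I gene shown (points, with bars of 1 SE) for spermidine minus aged, aged minus young and spermidine minus young, by class, with filled points where the edgeR adjusted p was under 0.05. Filled points number 3 to the right of 0 in the first panel, 23 to the left in the second and 0 in the third.

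The authors' deposited table gave 4 of the 48 higher with spermidine and 0 lower, the 3 genes above and Ndufaf6, where 1.9% of its genes were higher and 2.19% lower. The call count moved with the libraries used, as did calls over all tested genes. Without spermidine library 2, aged library 2 or aged library 3, 0 genes passed, where 0.433%, 0.335% and 0.494% of all tested genes were higher. Without spermidine library 3, 1 gene passed (Ndufb2; 0.741% of all tested genes), and without spermidine library 4, 12 passed (4.37% of all tested genes). When only the 2 groups were fitted 0 passed (0.536% of all tested genes), and with DESeq2 14 passed (5.3%). The median after correction for length and GC content was 0.18 with the principal and 0.31 with the median coding transcript.

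Between spermidine and young oocytes, 0 of 48 genes passed, with 0 by DESeq2 as well. At an unadjusted p under 0.05 there were 6, against 20% of tested genes, and 1.92% and 3.44% of all tested genes were called lower and higher. The median log2 fold change was -0.13, against 0.04 for all tested genes, and 35 of the 48 were below 0, against 45.3%. Under total count scaling these medians were 0.05 and 0.23. The estimates ran from -0.50 for Ndufaf2 to 1.09 for Ndufa4l2. Over the 48 genes, the median lower and upper bounds of the 95% interval were -0.46 and 0.19, so the missing calls do not show that the levels were equal.

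The 3 genes of smallest p in this comparison were Ndufaf6, Ndufa11 and Ndufa8. Ndufaf6, an assembly factor of the squalene and phytoene synthase family, had 16.1, 15.7, 15.5 and 14.2 CPM with spermidine, 10.8, 11.4 and 11.2 CPM in aged, and 11.1, 13.7 and 10.2 CPM in young oocytes. Every spermidine library lay above every young one, which was so in 1 of the 48 genes against 12.1% of tested genes (spermidine minus young, log2 fold change 0.39, SE 0.15, edgeR adjusted p = 0.154), and between aged and young oocytes its groups overlapped (edgeR adjusted p = 0.765). Ndufa11, a multi-pass membrane arm subunit that contacts complex III in respiratory supercomplexes, had 193, 199.99, 199 and 159 CPM with spermidine, 140.4, 139 and 142 CPM in aged, and 162, 141 and 151 CPM in young oocytes. Spermidine library 4 fell within the young range, and the other 3 lay above it (log2 fold change 0.31, SE 0.12, edgeR adjusted p = 0.171). Ndufa8 was lower with spermidine than in young oocytes in every library, at 96.6 to 130.5 against 138 to 155 CPM (log2 fold change -0.34, SE 0.13, edgeR adjusted p = 0.172). Ndufs7, Ndufs8, Ndufa10 and Ndufb9 also had all spermidine libraries below the young ones, making 5 genes of 48, where 8.92% of tested genes did so.

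Of the 7 genes with the NRF1 motif in the promoter, 5 were lower in aged oocytes, Ndufa6, Ndufa8, Ndufb6, Ndufb8 and Ndufaf4. Of the 34 complex I genes with a promoter and no such match, 16 were lower. Over all tested genes 8.06% were lower, and the share among those with the motif was not computed. A link between the motif and the level was not tested. Ndufa11 and Ndufaf5 hold the motif and were not called, and Ndufb10, whose promoter holds none of the 4 motifs, was among the genes of smallest p.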

How the data were processed

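RNA of mouse oocytes was sequenced in 10 libraries by SMART-seq2, which primes cDNA with oligo dT, per the labels' protocols. The authors deposited 1 table of 18493 genes holding an expected count per gene and library, of which 15.9% to 16.7% were not whole numbers (tolerance 0.005), and their own log2 fold changes, p-values and q-values. Per the submitters' processing notes, the build was mm9 and the tools were RSEM 1.3.1, Bowtie2 2.3.4.3 and DESeq2 1.4.5, with no role stated. Strand use in counting is not given in the sources used here.

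Expected counts were rounded. With R 4.3.3, edgeR 4.0.16 tested 12315 genes kept by filterByExpr, with TMM scaling and the robust quasi-likelihood F test in 1 fit over all libraries, with Benjamini-Hochberg adjustment over genes and a threshold of 0.05. The script was tested on simulated data. SEs follow from the F statistic, and intervals are 95%. CPM values are counts scaled to a fixed total of the TMM-scaled library.

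Lengths and GC content came from GENCODE M21 (GRCm38), matched by gene ID for 97.4% of tested genes, and promoters from RefSeq GRCm38.p6, matched for 41 members. The length and GC correction used splines of 4 degrees of freedom per library. It was first run with the median coding transcript and then, because that gave implausibly short lengths for some genes, with the principal transcript, a choice made after seeing the first output; both were kept. Genes without a length were left uncorrected.

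Members and gene lists were chosen with earlier results of these data known. Values in every library are given for the 2 genes of smallest p per class in aged minus young, the 3 of smallest p in each other comparison, and Ndufa4 and Ndufa4l2. Other genes named for a particular value were picked after their values were seen. Alternatives were RLE factors, total count scaling, other filters, DESeq2 1.42.0, 2-group fits, a replicate block, no robust fit, length and GC correction, and libraries left out; the correction was planned without naming a transcript, and a second version of it and the removal of the 3 libraries with haemoglobin were added after seeing the data. Coa1 was not used here, and 1 core subunit is counted among the 48 but not reported here by itself or drawn. Counting error limits Ndufa4l2, and reads carried no stated molecular identifiers.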

Additional observations from a re-analysis of the deposited data

Results flagged for a closer look

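Ndufs8, a core iron-sulphur subunit, had 1 library apart from its group: spermidine library 4 was at 24.8 CPM, and the other 3 spermidine libraries lay between 33.8 and 34.3 CPM. Its distance to the nearest library, divided by the range of the group, was 0.948, above Dixon's critical value for 4 libraries. Of the 48 genes examined, 1 was singled out this way, no more than chance would give at about 1 in 20 groups. Spermidine library 4 also had the lowest summed subunit level of its group, 2504 CPM, and the highest oocyte marker sum of the 10 libraries, 31770 CPM.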

How the results depend on the processing

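The members' median log2 fold change kept its sign in spermidine minus aged and in aged minus young under every alternative run. The number of genes past the threshold did not hold. In aged minus young, 23 genes were lower; the count was 4 under total count scaling, 11 with length and GC correction and 0 without young libraries 1 and 3 and aged library 1 together, and 8 to 25 when 1 library was left out. In spermidine minus aged, 3 genes were higher; the count was 1 under total count scaling, 6 with at least 10 CPM in 3 libraries, 14 with DESeq2, 0 with only the 2 groups compared, 5 with the median coding transcript in the correction, 0 without the 3 libraries with haemoglobin, and 0 to 12 when 1 library was left out. The cause was not tested. When 1 library was left out, calls over all tested genes also moved, between 437 and 1194 lower in aged minus young. In spermidine minus aged they moved between 42 and 537 higher. Under total count scaling, 3.29% of all tested genes were lower in aged minus young and 1.24% higher in spermidine minus aged. In spermidine minus aged, 4.05% were higher with at least 10 CPM in 3 libraries, and 2.65% with the median coding transcript. Ndufs5, at -0.46 in aged minus young, was at 0.0125 with length and GC correction (edgeR adjusted p = 0.955), the 1 sign change of a called gene. In spermidine minus young the count was 0 under every alternative. Of the 23 and the 3 calls, 0 passed under every alternative.

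The labels do not say whether replicate numbers pair the libraries, and these few correlations cannot decide it. Deviations of same-numbered libraries correlated at 0.38, -0.08 and 0.06 for spermidine and aged. They correlated at 0.18, 0.17 and -0.26 for aged and young, and -0.08, -0.18 and -0.04 for spermidine and young. Correlations of differently numbered libraries ran from -0.38 to 0.34. With a replicate block, 10 genes were higher in spermidine minus aged, where 3.52% of all tested genes were higher. In aged minus young 23 were lower, where 8.41% of all tested genes were lower. In spermidine minus young 0 were called, where 1.9% of all tested genes were lower and 3.22% higher. Depth limits Ndufa4l2, with 0 to 25 counts in a library.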
